A study of Mus musculus with 30 samples.

Results

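The genes described here are 71 receptor genes expressed in cells sorted from the mouse stomach, most of them G protein-coupled receptors (GPCRs) for nutrients, transmitters and lipid mediators, or receptors without an agreed ligand. They were chosen by symbol and by level. Of the 25942 named genes in the deposited tables, 106 carried a symbol beginning with Gpr and a digit, or belonged to the families Ffar, Htr, Adra, Adrb, P2rx, P2ry, Tas1r, Lpar, S1pr and Ptger. Of these, 71 reached at least 10 normalized counts in at least 3 of the 30 libraries, and 35 did not. A normalized count is a gene's read count divided by a scaling factor of its library, as the authors deposited it. The choice used no difference between groups. Gpr21 and Gpr37l1 stood just inside the minimum, with 10.3 and 10.7 normalized counts in their third-highest library, and Gpr82 and Gpr20 stood just outside it at 9.55 and 9.17. Among the genes left out were Gpr119, a receptor for fatty acid amides, and Tas1r2, the partner of Tas1r3 in the sweet taste receptor, whose highest libraries held 9.88 and 4.94 normalized counts. By role, 7 of the 71 genes were nutrient and taste receptors, 3 were serotonin receptors, 5 adrenergic, 5 P2X and 3 P2Y purine, 6 lysophosphatidic acid (LPA), 2 sphingosine-1-phosphate (S1P), 4 prostaglandin E and 2 proton-sensing receptors, and 34 were other Gpr genes. Not all encode GPCRs: 6 encode ligand-gated ion channels (P2rx1, P2rx3, P2rx4, P2rx6, P2rx7 and Htr3a), 8 encode other membrane proteins that carry a Gpr name, such as Gpr107, Gpr108 and Gpr155, and Gpr137b.ps is a pseudogene.

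A GPCR spans the cell membrane and passes the binding of an outside ligand to a heterotrimeric G protein, which raises or lowers cyclic AMP or releases calcium through phospholipase C. In the gut, enteroendocrine cells carry receptors for fatty acids and amino acids and release hormones when these are bound, and tuft cells use the taste cascade of Gnat3, Plcb2 and Trpm5. In the stomach, acid and mucus secretion also respond to prostaglandin E, noradrenaline, serotonin and purine receptors on the epithelium.

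The study profiled, by RNA-seq, epithelial cells sorted from the corpus, the acid-secreting body of the stomach, and from the antrum, its distal part, to compare cells that differ in the stem cell markers Lgr5 and Sox2. The Lgr5-DTR-GFP line marks Lgr5-expressing cells with green fluorescence and also carries a diphtheria toxin receptor, and the Sox2-Tomato line reports Sox2 with a red fluorescent protein. All 10 groups held 3 libraries and carried the genotype label WT, besides the reporters. From the antrum these were Lgr5-positive and Lgr5-negative cells of the first line and cells of the other with high, low and no Sox2 signal. From the corpus they were Lgr5-positive cells with high surface EpCAM, an epithelial adhesion protein, Lgr5-positive cells with low EpCAM, and Lgr5-negative cells of the first line, and Sox2-positive and Sox2-negative cells of the other. In the description labels the corpus Sox2-positive libraries are marked as a low Sox2 gate, so they are not the counterpart of the antral Sox2-high cells. The labels give no age or agent for the animals and do not say how many were pooled. Per the sort sheet, 1 number within a line and tissue stands for 1 sort day. Nothing in the labels says that the 3 libraries of a group came from separate animals, so the p-values measure the spread between these libraries.

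The libraries held 18672634 to 34437305 reads over all deposited features, except the corpus EpCAM-low Lgr5-positive libraries, which held 31985198 to 62344916 reads. The EpCAM-low libraries had only 15014 to 16299 detected genes, against 17749 to 21694 in all others. These 3 libraries stand apart, and their summed chief cell markers reached 40782300 to 91654900 normalized counts, against 5106310 to 8091210 in EpCAM-high and 7803660 to 10431600 in Lgr5-negative cells. Scaling each library to its read total instead moved the median gene by a log2 of 2.02 in EpCAM-high over EpCAM-low cells and by -2.11 in EpCAM-low over Lgr5-negative cells, so directions in these comparisons are given with that scaling where it changes them. The sort genes went with the labels: Lgr5 held 2767 to 5727 normalized counts in antral Lgr5-positive and 66.3 to 321 in Lgr5-negative cells, and Sox2 held 1355 to 3628 in antral Sox2-high, 374 to 709 in Sox2-low and 36.6 to 442 in Sox2-negative cells. Antral Sox2-low and Sox2-negative cells therefore overlapped in Sox2 itself. The sorts yielded 1630 to 3268 cells for the Sox2-high and 2580 to 5230 for the EpCAM-high libraries, and 3455 to 142000 for the rest. In bulk samples such as these, fewer cells of a type and less RNA per cell cannot be told apart.

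The receptor genes were ranked over all 10 groups on one common scale. On CPM, counts scaled to a common library size, after joint TMM scaling, 18 of the 71 genes had their highest group mean in corpus EpCAM-high Lgr5-positive cells, 12 in corpus EpCAM-low Lgr5-positive cells, 12 in antral Sox2-high cells and 12 in corpus Sox2-negative cells. Antral Sox2-negative cells were highest for 5 genes, antral Lgr5-positive cells for 4, antral Lgr5-negative and corpus Sox2-positive cells for 3 each and corpus Lgr5-negative cells for 2, and antral Sox2-low cells for 0. For 23 of the 71 genes all 3 libraries of the top group lay above each of the other 27 libraries. In EpCAM-high cells these were Tas1r3, Ffar3, Lpar5, S1pr2, Htr1b, Gpr18, Gpr135, Gpr137b, Gpr137b.ps and Gpr160, in EpCAM-low cells Adra1b, Ptger3 and Gpr155, in antral Sox2-high cells Ffar2, Gpr6, Gpr85 and Htr5a, in corpus Sox2-negative cells P2rx1, Ptger2, Gpr161 and Gpr182, and in antral Sox2-negative cells Ffar1 and Ffar4. Tas1r3, the common subunit of the sweet and umami taste receptors, averaged 54.7 CPM in EpCAM-high cells, and the next group, corpus Sox2-positive cells, averaged 5.70. Ffar2, a receptor for short-chain fatty acids, averaged 140.0 in antral Sox2-high cells and 46.6 in the next group, antral Lgr5-positive cells. Lpar5 also led in EpCAM-high cells, but narrowly: its lowest library there held 28.8 CPM and its highest library elsewhere 28.3. The antrum and the corpus tables were scaled separately by the authors and the sorts used different lines, so this ranking describes levels and was given no test. The ranking was not made over all genes. Its counts per group and the 23 genes therefore cannot be read as particular to receptor genes.

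**Figure D1:**
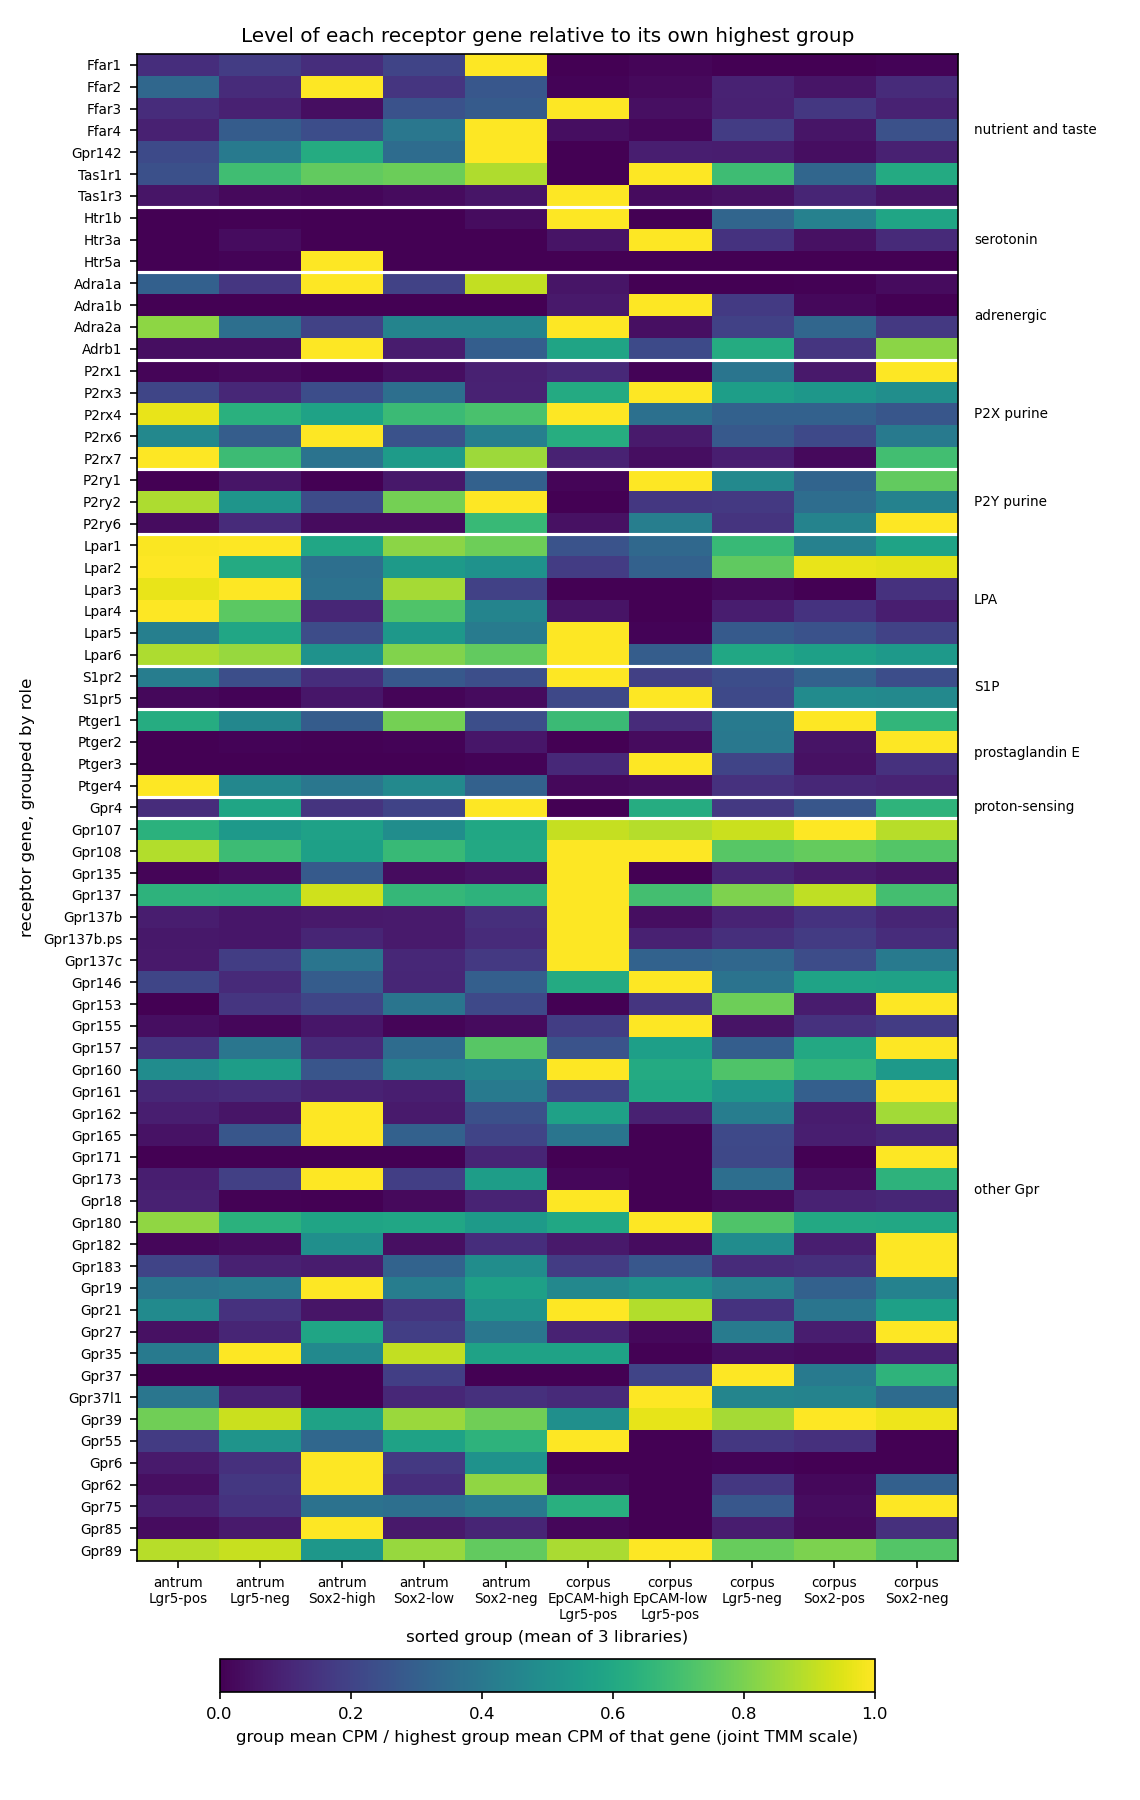
Rows are 69 of the 71 receptor genes, grouped by role, and columns are the 10 sorted groups; colour is the group mean in CPM (joint TMM scale, mean of 3 libraries) divided by that gene's highest group mean, from 0 to 1. Corpus EpCAM-high Lgr5-positive cells are the brightest group for 18 genes, and corpus EpCAM-low Lgr5-positive and antral Sox2-high cells for 12 genes each. The same ranking was not made for all genes.

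Within the antrum, differences were tested with limma on the scale log2(normalized count + 1). P-values were adjusted by the Benjamini-Hochberg method over all genes of each fit, with a threshold of 0.05. All fold changes below are on that scale, which understates changes of low genes. In Sox2-high over Sox2-low cells, 10 of 53 receptor genes tested rose and 0 fell; of all genes, 7.9% were called, with 6.14% called higher. The 10 were Gpr85, Gpr182, Htr5a, Adrb1, Gpr62, Gpr6, Ffar2, P2rx6, Gpr146 and Gpr19, a set that covers nutrient, serotonin, adrenergic and purine receptors as well as orphans. Htr5a reached 10 normalized counts only in Sox2-high libraries, so here and over Sox2-negative cells it could only be called higher. The called genes were 18.9% of those tested, and the median log2 fold change of the 53 was -0.11, against 0.00 over all genes. With sort day as a block, 14 rose and 5 fell, against 30.4% of all genes called. Among the 14, Gpr135 likewise reached 10 normalized counts only in Sox2-high libraries of these sorts and could only be called higher. With 1 library left out and no block, 2 to 9 receptor genes were called, not all of them among the 10. The count was 2 without Sox2-high library 2 or Sox2-low library 2 or 3. It was 4 without Sox2-high library 3 or Sox2-low library 1. Gpr85 and Gpr182 passed under each of these and under every other setting tried.

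Sox2-high over Sox2-negative cells showed Gpr85 and Htr5a higher and 0 lower of 53 tested, with 2.15% of all genes called and 1.43% called higher. With the block, 5 rose and 6 fell, against 9.71% of all genes, 5.38% higher and 4.33% lower. Without 1 library the count was 0 (Sox2-high library 2 or 3), 1 (Sox2-high library 1 or Sox2-negative library 2 or 3) or 4 (Sox2-negative library 1). In Sox2-low over Sox2-negative cells limma called 0 of 53 receptor genes and 0 of all genes, with and without the block. In limma 5 receptor genes had an unadjusted p under 0.05, edgeR called 0 and DESeq2 called 3 lower (Gpr146, Gpr182 and Gpr62). In antral Lgr5-positive over Lgr5-negative cells limma called 0 of 40 receptor genes, with 0% of all genes called and 6 receptor genes at an unadjusted p under 0.05. There edgeR called 0 and DESeq2 2. The same fit with the sort-day block called 4 receptor genes, Ffar2, Adra2a and Ptger4 higher and Ffar4 lower, against 3.18% of all genes, and edgeR with the block called the same 4. The 3 comparisons among Sox2 sorts share libraries, so their calls are not independent. Markers of enteroendocrine cells moved with the Sox2-high sort: their sum over 9 genes was 1984390 to 2622070 normalized counts in Sox2-high, 24870 to 43044 in Sox2-low and 67547 to 150576 in Sox2-negative cells, and 7 of 9 rose and 1 fell over Sox2-low cells. The 4 serotonin cell markers summed to 191156 to 427268, against 1545 to 3041 in Sox2-low cells, and the 9 tuft cell markers to 2499 to 6093, against 13739 to 30048. The 2 markers of D cells (Sst and Hhex), also enteroendocrine, went the other way. They summed to 10260 to 37188 in Sox2-high, 71952 to 189406 in Sox2-low and 69123 to 143009 in Sox2-negative cells. The 4 endothelial markers summed to 1219 to 1915 in Sox2-high and 634 to 823 in Sox2-low cells, with 2 of 4 higher and 1 lower. No gene of these lists was at 0 in all libraries of a group, and their part in the receptor differences was not tested.

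Without the sort-day block, the corpus Lgr5 sorts differed in more receptor genes than the antral sorts, and also in more of all genes. In EpCAM-high over EpCAM-low Lgr5-positive cells, 14 of 52 receptor genes rose and 5 fell, where 31.8% of all genes were called, 17.5% as higher and 14.3% as lower. Scaled to the read total, which raised the median gene here as well, 32 rose and 3 fell. The median of the 52 was 0.86 (0.84 with genes at 0 in 1 group placed at their bound), against 0.07 over all genes. In EpCAM-high over Lgr5-negative cells, 11 of 52 rose and 6 fell, where 21.1% of all genes were called. Scaled to the total, 9 rose and 8 fell. In EpCAM-low over Lgr5-negative cells, 7 rose and 13 fell, where 30.9% of all genes were called. After TMM scaling 5 rose and 13 fell, and scaled to the total, which lowered the median gene here, 1 rose and 36 fell. Their medians were 0.02 against -0.06 over all genes, and -0.98 (-0.86 with bounds) against -0.19. Of the receptor genes tested, 36.5%, 32.7% and 38.5% were called in these 3 comparisons, against 31.8%, 21.1% and 30.9% of all genes. Whether these shares differ was not tested. The shares of all genes are those of the main fit and not of the other scalings. The 9 tuft cell markers all rose in EpCAM-high cells, summing to 181973 to 364644 normalized counts, against 1724 to 10984 in EpCAM-low and 15881 to 28955 in Lgr5-negative cells, and none was at 0 in a whole group. The 4 parietal cell markers summed to 165443 to 787045 in EpCAM-high, 2489730 to 3220710 in EpCAM-low and 118052 to 186671 in Lgr5-negative cells. Gif, 1 of the 4, is also in the chief cell list, so this sum does not tell parietal from chief cells. Endothelial markers (4 genes in the table) summed to 2027 to 3588 in EpCAM-high, 361 to 465 in EpCAM-low and 214 to 315 in Lgr5-negative cells, and 2 of 3 tested (Esam and Tek) rose in EpCAM-high over each group, with Vwf at 0 in all EpCAM-low libraries. The part of these cell types in the receptor differences was not tested. Without 1 library the counts ranged from 17 to 22, from 8 to 15 and from 13 to 22 in the same order. The 17 calls of EpCAM-high over Lgr5-negative cells came to 9 without Lgr5-negative library 1 or 3 and 8 without library 2, and the 20 calls of EpCAM-low over Lgr5-negative cells to 13 without Lgr5-negative library 2.

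In corpus Sox2-positive over Sox2-negative cells, 0 of 45 receptor genes rose and 12 fell, where 9.73% of all genes were called, 1.7% higher and 8.02% lower. With sort day as a block 2 rose (Adra2a and Tas1r3) and 14 fell, where 4.95% of all genes were called higher and 11.5% lower. These were 26.7% of the 45, whose median was -0.45, against 0.01 over all genes. Enteroendocrine markers summed to 26418 to 40975 normalized counts in Sox2-positive and 396253 to 963725 in Sox2-negative cells, and the 2 markers of enterochromaffin-like (ECL) cells, which release histamine, to 2497 to 5434, against 43186 to 111649. Of these, 5 of 9 and 2 of 2 fell. The 2 D cell markers (Sst and Hhex) went the other way, at 22810 to 24845 in Sox2-positive and 5871 to 16593 in Sox2-negative cells. So did the tuft list, at 31229 to 59336 in Sox2-positive and 15002 to 23518 in Sox2-negative cells, with 9 of 9 higher. Of 8 immune markers tested 1 rose and 3 fell. Whether these cell types account for any of the receptor differences was not tested. The count of 12 came to 6 without Sox2-negative library 2 or 3. Gpr153, Gpr162, Gpr173 and Gpr183 fell below the minimum without any 1 Sox2-negative library and were not tested there. No Sox2-positive library of these genes reached 10 normalized counts, so they entered this fit only through Sox2-negative cells. Only a fall could therefore be called for them, though they are part of the 12.

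Among the nutrient receptors, those for short-chain fatty acids peaked in different sorts. Ffar2 had 6505, 4202 and 2472 normalized counts in antral Sox2-high cells, 784, 556 and 495 in Sox2-low and 2011, 456 and 917 in Sox2-negative cells. All Sox2-high libraries lay above all others of the antral Sox2 sorts, and Ffar2 rose over Sox2-low cells (log2 fold change 2.76 ± 0.54 (SE), limma adjusted p = 0.0184). Ffar2 no longer passed without Sox2-high library 2 or Sox2-low library 2 or 3 (adjusted p 0.0704 to 0.0754). Over Sox2-negative cells its log2 fold change was 2.11 ± 0.54 (adjusted p = 0.0954; 0.0083 with the block). In the antral Lgr5 sorts Ffar2 had 2038, 1332 and 822 normalized counts in Lgr5-positive cells, against 510.3, 558 and 371 in Lgr5-negative cells, without overlap (log2 fold change 1.46 ± 0.39, limma adjusted p = 0.332; 0.0219 with the block). In the corpus the order differed: EpCAM-high cells held 24.7, 55 and 47.4, EpCAM-low cells 1.94, 217 and 96.8 and Lgr5-negative cells 414, 369.8 and 381, and neither Lgr5-positive sort overlapped the Lgr5-negative libraries. These differences did not pass (limma adjusted p = 0.108 and 0.0814), the EpCAM-low one passing with the block (0.0494). Corpus Sox2-positive cells held 226, 288 and 102, against 310.5, 728 and 429 in Sox2-negative cells, again without overlap, at -1.29 ± 0.41 (limma adjusted p = 0.0951; 0.0317 with the block).

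Ffar3, the other short-chain fatty acid receptor, had 131, 143 and 199 normalized counts in EpCAM-high Lgr5-positive cells, 3.89, 3.50 and 12.5 in EpCAM-low and 24.5, 5.85 and 10.2 in Lgr5-negative corpus cells. The EpCAM-high libraries stood above all 6 others, and Ffar3 rose over EpCAM-low cells (log2 fold change 4.55 ± 0.72, limma adjusted p = 0.00139) and over Lgr5-negative cells (log2 fold change 3.64 ± 0.72, adjusted p = 0.00737). In the antrum it ran opposite to Ffar2: Sox2-high libraries held 0, 4.09 and 12.3, below all Sox2-low (45.3, 31 and 34.6) and Sox2-negative (19.8, 46 and 59.7) libraries. That difference passed only with the block (limma adjusted p = 0.0172 and 0.0366, against 0.0667 and 0.125 without it), and a difference in direction between Ffar2 and Ffar3 was not itself tested.

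Ffar4, a receptor for long-chain fatty acids, fell in corpus Sox2-positive cells, with 73.7, 63.3 and 46.2 normalized counts in them, against 216, 384 and 253 in Sox2-negative cells. No library of the pair of groups overlapped (log2 fold change -2.18 ± 0.29, limma adjusted p = 0.00157). It also fell in EpCAM-low Lgr5-positive cells, at 23.3, 49 and 3.12 against 174, 263 and 179 in Lgr5-negative cells (log2 fold change -3.57 ± 0.86, adjusted p = 0.0125), and lost the call without Lgr5-negative library 2 (adjusted p 0.0531). EpCAM-high cells lay below the same Lgr5-negative libraries, at 54.7, 59.6 and 24.3, but the test did not pass (log2 fold change -2.20 ± 0.86, limma adjusted p = 0.0983). In the antrum Ffar4 had 116, 115 and 87.1 normalized counts in Lgr5-positive cells, against 510.3, 283 and 206 in Lgr5-negative cells, without overlap, and passed only with the block (log2 fold change -1.55 ± 0.42, limma adjusted p = 0.346, and 0.038 with it). Its highest antral values were in Sox2-negative cells, 2033, 528 and 1003, above all Sox2-high libraries (452, 242 and 212), which again passed only with the block (limma adjusted p = 0.109 and 0.0119). Ffar1, the second long-chain fatty acid receptor, was seen mainly in the antrum: 37.2, 8.87 and 6.79 normalized counts in Sox2-high, 32.8, 18.2 and 22.1 in Sox2-low and 282, 47.8 and 49.2 in Sox2-negative cells, and at most 3.12 in any corpus library. Its Sox2-high libraries lay below its Sox2-negative ones, by -2.63 ± 0.84 (limma adjusted p = 0.192; 0.0195 with the block).

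Tas1r3 had 1298, 1985 and 1647 normalized counts in EpCAM-high Lgr5-positive cells, 123, 31.5 and 9.37 in EpCAM-low and 102, 53.8 and 63.5 in Lgr5-negative corpus cells. Each EpCAM-high library was above all others, and Tas1r3 rose over EpCAM-low cells (log2 fold change 5.55 ± 0.75, limma adjusted p = 0.000623) and over Lgr5-negative cells (log2 fold change 4.50 ± 0.75, adjusted p = 0.00359). These calls held without any one library and under every setting tried. Its partner in the umami receptor, Tas1r1, was listed at 0 in all 3 EpCAM-high libraries and at most 17.7 in any library, and Tas1r2 was at 0 in all 9 libraries of the corpus Lgr5 sorts, so in this sort Tas1r3 was counted without either partner. In corpus Sox2-positive cells Tas1r3 had 217, 106 and 132, above the 89.5, 76.2 and 74.2 of Sox2-negative cells (log2 fold change 0.86 ± 0.30, limma adjusted p = 0.132; 0.0419 with the block). Tas1r3 overlaps the gene Dvl1 in the annotation, and the sources used here do not say whether counting used strand. Gpr142, a receptor for aromatic amino acids, had 27.4, 137 and 79.6 in antral Sox2-high, 38.6, 40.5 and 49.5 in Sox2-low and 156, 57.9 and 167 in Sox2-negative cells, which overlapped, and was called in no comparison.

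**Figure D2:**
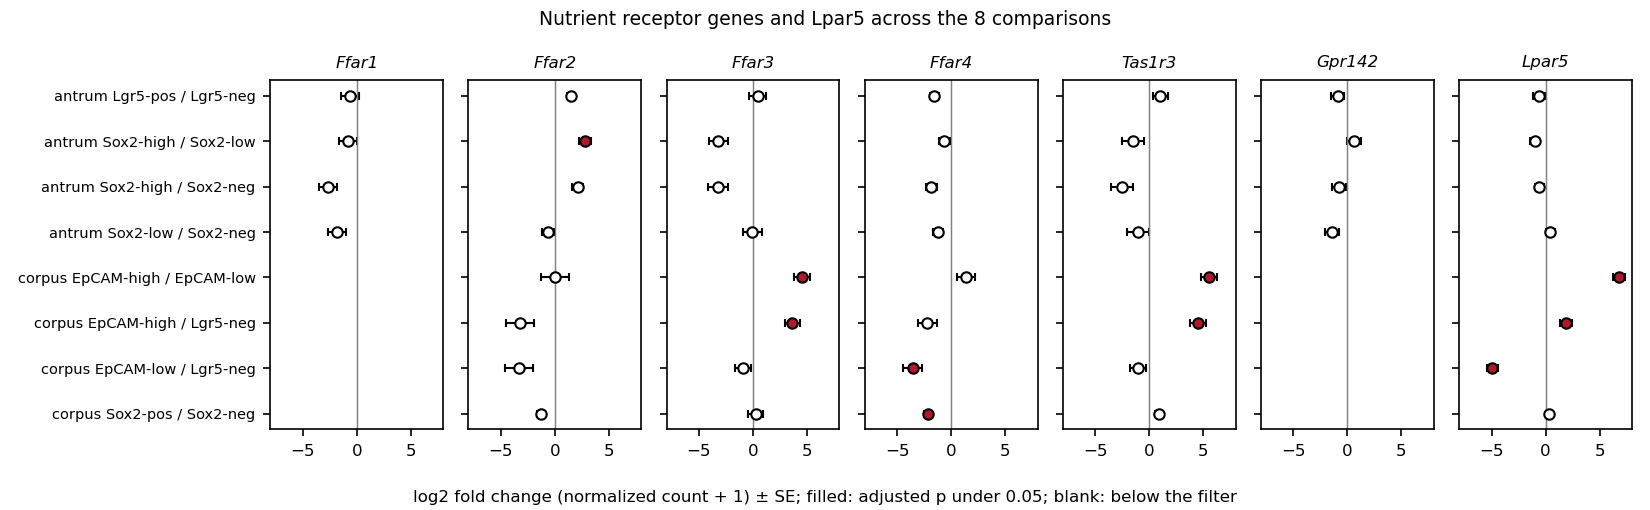
Each panel is a receptor gene and each row a comparison, with the log2 fold change (normalized count + 1) ± SE on the horizontal axis; filled points passed an adjusted p under 0.05 and blank rows were below the filter. Ffar2 is called in antral Sox2-high over Sox2-low cells (2.76), Ffar3, Tas1r3 and Lpar5 in EpCAM-high over EpCAM-low cells (4.55, 5.55 and 6.79), and Ffar4 to the left of 0 in corpus EpCAM-low over Lgr5-negative (-3.57) and Sox2-positive over Sox2-negative cells (-2.18).

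Promoters were read for the receptor genes because several of them rose together in EpCAM-high cells. RefSeq promoters of the build GRCm38.p6 were matched to 57 of the 71 genes, giving 78 windows of 250 bases before a transcription start. Each was searched on both strands for the octamer ATGCAAAT (other strand ATTTGCAT) bound by POU factors such as the tuft cell factor Pou2f3, for the SOX core ACAATG, and for CAGATG, an E-box. The octamer was in 0 of 78 windows, against 1.6% of the 32851 windows of all genes, the SOX core in 6 (7.69%, against 10.7%) and the E-box in 19 (24.4%, against 14.4%), which belonged to 16 genes. The windows of the receptor genes had a median GC content of 58.0%, against 52.4% for all. Shown are 3 genes that rose in EpCAM-high cells in both comparisons, Tas1r3 at chr4:155863354-155863603 (- strand), Lpar5 at chr6:125067670-125067919 (+ strand) and chr6:125071085-125071334 (+ strand), and S1pr2 at chr9:20976794-20977043 (- strand), and for contrast Gpr85 at chr6:13839943-13840192 (- strand), which with Gpr182 kept its rise over antral Sox2-low cells under every setting tried. Capitals mark the matches, and positions are in GRCm38.p6.
Tas1r3: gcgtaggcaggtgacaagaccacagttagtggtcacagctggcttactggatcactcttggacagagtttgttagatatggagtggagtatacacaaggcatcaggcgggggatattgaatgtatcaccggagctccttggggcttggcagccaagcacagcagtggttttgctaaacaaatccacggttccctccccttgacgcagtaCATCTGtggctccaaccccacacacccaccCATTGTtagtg
Lpar5 first start: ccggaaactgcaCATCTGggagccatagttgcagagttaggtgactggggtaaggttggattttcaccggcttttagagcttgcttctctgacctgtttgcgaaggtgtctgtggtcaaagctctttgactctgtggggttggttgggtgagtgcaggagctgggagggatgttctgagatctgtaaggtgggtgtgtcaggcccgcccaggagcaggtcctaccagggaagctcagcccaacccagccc
Lpar5 second start: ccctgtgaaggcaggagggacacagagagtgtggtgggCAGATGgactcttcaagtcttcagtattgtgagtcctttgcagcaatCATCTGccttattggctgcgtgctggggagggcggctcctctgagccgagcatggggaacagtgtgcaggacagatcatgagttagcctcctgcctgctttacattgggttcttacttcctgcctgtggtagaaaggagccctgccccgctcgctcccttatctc
S1pr2: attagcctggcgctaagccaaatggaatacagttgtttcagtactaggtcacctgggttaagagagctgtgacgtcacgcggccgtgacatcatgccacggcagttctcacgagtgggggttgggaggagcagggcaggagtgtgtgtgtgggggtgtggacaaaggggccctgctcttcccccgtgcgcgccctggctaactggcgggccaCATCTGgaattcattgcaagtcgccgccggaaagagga
Gpr85: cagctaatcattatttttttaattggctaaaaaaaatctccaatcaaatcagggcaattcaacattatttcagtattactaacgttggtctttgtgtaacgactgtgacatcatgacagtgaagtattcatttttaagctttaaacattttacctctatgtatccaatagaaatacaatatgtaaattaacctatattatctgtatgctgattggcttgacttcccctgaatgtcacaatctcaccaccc

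The Tas1r3 window held a SOX core that begins 11 bases before the start and an E-box at 41 bases, both on the other strand, and the S1pr2 window an E-box at 38 bases. Lpar5 has its E-box matches at 238 bases before the first start and at 212 and 165 before the other start, and the windows of Gpr85, with a GC content of 32.0%, and of Adra2a held no match. These matches describe letters only; no binding data were measured here.

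Among the serotonin receptors Htr5a, which inhibits cyclic AMP, had 15.3, 34.8 and 20.4 normalized counts in antral Sox2-high cells and 0 in all 6 Sox2-low and Sox2-negative libraries. It was at least 10.5-fold higher than in either group, taking a floor of 3 reads per library (limma adjusted p = 0.0114 over Sox2-low and 0.0212 over Sox2-negative cells). Htr5a met the minimum only through these Sox2-high libraries, so in both comparisons only a rise could be called. Over Sox2-low cells it no longer passed without Sox2-low library 2 or 3 (adjusted p 0.0533 to 0.0554). Over Sox2-negative cells it no longer passed without Sox2-negative library 2 or 3 (adjusted p 0.0702 to 0.0804), nor in edgeR (0.0767), in edgeR with sort day as a block (0.0692) or with only the compared groups in the fit (0.092). Outside this sort Htr5a reached at most 0.627 in any of the 27 other libraries. Htr1b, another receptor that inhibits cyclic AMP, had 51.5, 66.4 and 49.8 in EpCAM-high cells, 0 in all 3 EpCAM-low libraries and 6.11, 29.3 and 17 in Lgr5-negative corpus cells. It was at least 6.52-fold higher in EpCAM-high than in EpCAM-low cells (limma adjusted p = 0.000386), and at least 2.04-fold lower in EpCAM-low than in Lgr5-negative cells (adjusted p = 0.00365), where the Lgr5-negative libraries ranged widely. It was also detected in all 6 libraries of the corpus Sox2 sorts, with 22.4, 21.1 and 22.3 in Sox2-positive and 27.5, 41.4 and 24.4 in Sox2-negative cells. Over Lgr5-negative cells the EpCAM-high difference in Htr1b was 1.85 ± 0.72 (limma adjusted p = 0.0982), although the libraries did not overlap. Htr3a, a subunit of the serotonin-gated channel, was seen in 2 of 3 EpCAM-low libraries, at 0, 70.1 and 96.8, and at most at 15.2 elsewhere, and was called in no comparison. Serotonin itself is made through Tph1, and Tph1 rose in antral Sox2-high over Sox2-low cells (log2 fold change 9.06, limma adjusted p = 0.00219).

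Of 4 adrenergic receptor genes tested between the corpus EpCAM sorts, Adra2a and Adra1b were called, in opposite directions. Adra2a, an alpha-2 receptor that lowers cyclic AMP, had 2171, 3421 and 3131 normalized counts in EpCAM-high, 237, 91.1 and 49.97 in EpCAM-low and 739.8, 353 and 519 in Lgr5-negative cells. The groups were ordered without overlap: Adra2a rose in EpCAM-high over EpCAM-low cells (log2 fold change 4.78 ± 0.51, limma adjusted p = 0.000178) and over Lgr5-negative cells (log2 fold change 2.47 ± 0.51, adjusted p = 0.00892), and fell in EpCAM-low cells against Lgr5-negative cells (log2 fold change -2.31 ± 0.51, adjusted p = 0.00857). Adra1b, an alpha-1 receptor that releases calcium, had the opposite order, with 13.9, 64.2 and 40.1 in EpCAM-high, 579.5, 963 and 294 in EpCAM-low and 56.6, 135 and 88.5 in Lgr5-negative cells. It fell in EpCAM-high against EpCAM-low cells (log2 fold change -4.0 ± 0.64, limma adjusted p = 0.00154) and rose in EpCAM-low over Lgr5-negative cells (log2 fold change 2.63 ± 0.64, adjusted p = 0.0135). Adra1b no longer passed without Lgr5-negative library 1 (adjusted p 0.0558), nor after scaling to the total (0.305). In all 15 antral libraries Adra1b was at 0, and in the corpus Sox2 sorts it reached at most 24.8. In corpus Sox2-positive cells Adra2a had 1238, 731 and 562, above 549.8, 402 and 416 in Sox2-negative cells (log2 fold change 0.82 ± 0.27, limma adjusted p = 0.102; 0.00698 with the block).

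In the antrum Adra2a had 1874, 2658 and 2362 normalized counts in Lgr5-positive cells, against 509, 1185 and 1139 in Lgr5-negative cells, without overlap (log2 fold change 1.37 ± 0.39, limma adjusted p = 0.392; 0.023 with the block). It was lower in antral Sox2-high cells, at 268, 712 and 753 against 794, 1249.5 and 1493 in Sox2-low cells, where it passed only with the block (limma adjusted p = 0.264 and 0.00629), and likewise against Sox2-negative cells (0.538 and 0.0207). Adrb1, the beta-1 receptor, which raises cyclic AMP, had 78.8, 99.6 and 80.9 in antral Sox2-high, 6.75, 8.09 and 2.98 in Sox2-low and 52.4, 19.1 and 3.28 in Sox2-negative cells. All Sox2-high libraries were above the others, and Adrb1 rose over Sox2-low cells (log2 fold change 3.73 ± 0.87, limma adjusted p = 0.0327); over Sox2-negative cells the adjusted p was 0.268. Adrb1 no longer passed without Sox2-high library 2 or 3 or Sox2-low library 1, 2 or 3 (adjusted p 0.0856 to 0.123). In the corpus Adrb1 fell in Sox2-positive cells, at 17.1, 11 and 6.16 against 71.1, 80.6 and 46 in Sox2-negative cells (log2 fold change -2.49 ± 0.46, limma adjusted p = 0.00802). Adra1a, at most 103 normalized counts in any library, was called nowhere. Antral Sox2-high cells held 0, 103 and 99.99.

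Among the ATP-gated P2X channels, P2rx1 was highest in the negative sorts of the corpus. It had 57.9, 55 and 36.2 normalized counts in corpus Sox2-positive and 555, 974 and 742 in Sox2-negative cells, and fell without overlap (log2 fold change -3.89 ± 0.27, limma adjusted p = 0.000103). In the Lgr5 sorts it had 70.8, 77.9 and 125 in EpCAM-high, 1.94, 24.5 and 0 in EpCAM-low and 303, 339 and 246 in Lgr5-negative cells. P2rx1 fell in EpCAM-low against Lgr5-negative cells (log2 fold change -6.12 ± 1.0, limma adjusted p = 0.00246), rose in EpCAM-high over EpCAM-low cells (log2 fold change 4.40 ± 1.0, adjusted p = 0.00922), and gave -1.72 ± 1.0 in EpCAM-high over Lgr5-negative cells (adjusted p = 0.258). In the antrum it was low, with 14.2, 9.55 and 2.47 in Sox2-high, 29.9, 30.3 and 25 in Sox2-low and 122, 68.1 and 25.6 in Sox2-negative cells, and was called lower in Sox2-high cells only with the block (limma adjusted p = 0.0347 against Sox2-low and 0.0159 against Sox2-negative cells; 0.177 and 0.0954 without it). P2rx4, another ATP-gated channel, had 4426, 5721 and 3850.1 in EpCAM-high, 2001, 2098 and 1437 in EpCAM-low and 1518, 1311 and 1329 in Lgr5-negative cells. It rose in EpCAM-high cells over both (log2 fold change 1.34 ± 0.20, limma adjusted p = 0.00108, and 1.73 ± 0.20, adjusted p = 0.000801), and overlaps Camkk2 in the annotation.

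P2rx6 had 135, 139 and 112 normalized counts in EpCAM-high, 3.89, 31.5 and 12.5 in EpCAM-low and 59.6, 67.9 and 38.6 in Lgr5-negative cells. It rose in EpCAM-high over EpCAM-low cells (log2 fold change 3.32 ± 0.69, limma adjusted p = 0.006) and fell in EpCAM-low against Lgr5-negative cells (log2 fold change -2.09 ± 0.69, adjusted p = 0.0457). Against Lgr5-negative cells P2rx6 no longer passed without EpCAM-low library 1 or 3 or Lgr5-negative library 1, 2 or 3 (adjusted p 0.0764 to 0.143), nor with no filter on low values (0.0571), with a filter of 50 normalized counts (0.0516), in edgeR (0.079), in edgeR with sort day as a block (0.0819) or with only the compared groups in the fit (0.0923). In the antrum P2rx6 rose in Sox2-high cells, at 95.2, 276 and 248 against 31.8, 60.02 and 48.3 in Sox2-low cells, without overlap (log2 fold change 2.02 ± 0.50, limma adjusted p = 0.0396). Over Sox2-low cells P2rx6 no longer passed without Sox2-high library 2 or 3 or Sox2-low library 1, 2 or 3 (adjusted p 0.0926 to 0.157), nor with no filter on low values (0.0618), after TMM scaling (0.054), after scaling to the total (0.0879) or with only the compared groups in the fit (0.0624). In corpus Sox2-positive cells it had 31.6, 66 and 24.7, against 57.4, 118 and 67.6 in Sox2-negative cells, and was called lower only with the block (limma adjusted p = 0.232 and 0.0425). Of the P2Y receptors, which couple to G proteins, P2ry1, an ADP receptor, had 0, 0 and 1.21 in EpCAM-high, 46.7, 3.50 and 34.4 in EpCAM-low and 16.8, 9.36 and 9.07 in Lgr5-negative cells. It fell in EpCAM-high cells against EpCAM-low (log2 fold change -3.91 ± 0.97, limma adjusted p = 0.014) and Lgr5-negative cells (log2 fold change -3.24 ± 0.97, adjusted p = 0.0417), at levels near the minimum. P2ry1 entered this fit only through EpCAM-low and Lgr5-negative cells, so only a fall in EpCAM-high cells could be called. Against EpCAM-low cells P2ry1 no longer passed without EpCAM-high library 2 (adjusted p 0.0514). Against Lgr5-negative cells P2ry1 no longer passed without EpCAM-high library 1, 2 or 3 or Lgr5-negative library 2 or 3 (adjusted p 0.0614 to 0.12), nor with a pseudocount of 10 (0.152). P2rx3, P2rx7, P2ry2, a receptor for ATP and UTP, and P2ry6, a receptor for UDP, were called in no comparison, and their highest libraries held 35.0, 156, 34.5 and 118 normalized counts.

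The lysophospholipid receptors rose in EpCAM-high cells in part. Lpar5, a receptor for lysophosphatidic acid, had 902, 1161 and 874 normalized counts in EpCAM-high, 19.4, 7.01 and 3.12 in EpCAM-low and 329, 228 and 244 in Lgr5-negative cells. The 3 groups did not overlap, and the difference between the EpCAM sorts was 6.79 ± 0.54 (limma adjusted p = 5.41e-05), the highest fitted value of the receptor genes called there that were detected in both groups. Over Lgr5-negative cells Lpar5 rose by 1.88 ± 0.54 in EpCAM-high cells (adjusted p = 0.0349), and in EpCAM-low cells it fell (log2 fold change -4.91 ± 0.54, adjusted p = 0.000505). Over Lgr5-negative cells Lpar5 no longer passed without EpCAM-high library 1, 2 or 3 or Lgr5-negative library 1, 2 or 3 (adjusted p 0.0748 to 0.123). Lpar6 had 747, 809.95 and 627 in EpCAM-high, 198, 228 and 262 in EpCAM-low and 413, 421 and 408 in Lgr5-negative cells, in the same order and also without overlap, although with smaller differences. They were 1.66 ± 0.21 between the EpCAM sorts (limma adjusted p = 0.000433), 0.80 ± 0.21 over Lgr5-negative cells in EpCAM-high cells (adjusted p = 0.0235) and -0.86 ± 0.21 in EpCAM-low cells (adjusted p = 0.0133). In EpCAM-high over Lgr5-negative cells Lpar6 no longer passed without EpCAM-high library 1 or 2 or Lgr5-negative library 1, 2 or 3 (adjusted p 0.0562 to 0.0907), nor after scaling to the total (0.122). In EpCAM-low against Lgr5-negative cells Lpar6 no longer passed without Lgr5-negative library 2 or 3 (adjusted p 0.0512 to 0.0573). Lpar6 overlaps Rb1 in the annotation.

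Lpar2 went the other way, with 40.8, 34.4 and 13.4 normalized counts in EpCAM-high, 60.3, 63.1 and 40.6 in EpCAM-low and 139, 114 and 105 in Lgr5-negative cells, and fell in EpCAM-high against Lgr5-negative cells (log2 fold change -2.11 ± 0.53, limma adjusted p = 0.0207). Lpar2 no longer passed without EpCAM-high library 3 or Lgr5-negative library 1, 2 or 3 (adjusted p 0.0538 to 0.0834). Lpar1, another LPA receptor gene, was called nowhere. It ranged from 60.7 to 764 over the 30 libraries. In the antrum Lpar5 was called lower in Sox2-high (184, 242 and 265) than in Sox2-low cells (336, 534 and 543) only with the block (limma adjusted p = 0.18 and 0.0144). S1pr2, a sphingosine-1-phosphate receptor, had 528, 978 and 680.4 in EpCAM-high, 77.8, 249 and 116 in EpCAM-low and 179, 149 and 167 in Lgr5-negative cells. It rose over both, by 2.42 ± 0.42 (limma adjusted p = 0.00238) and 2.10 ± 0.42 (adjusted p = 0.00807), with every EpCAM-high library above the other 6. S1pr5 had 33.3, 0 and 224 in EpCAM-high and 397, 221 and 646 in EpCAM-low cells, which overlapped in 1 library, and was called lower only with the block (limma adjusted p = 0.0611 and 0.0294).

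Prostaglandin E acts through receptors that differ in their G protein: Ptger2 and Ptger4 raise cyclic AMP, Ptger3 lowers it and Ptger1 releases calcium. Ptger3, known to restrain acid secretion by parietal cells, had 326, 384 and 379 normalized counts in EpCAM-high, 2412, 5976 and 1805 in EpCAM-low and 585, 831 and 479.7 in Lgr5-negative cells. Every EpCAM-low library lay above the others, so that Ptger3 fell in EpCAM-high against EpCAM-low cells (log2 fold change -3.03 ± 0.40, limma adjusted p = 0.000537) and rose in EpCAM-low over Lgr5-negative cells (log2 fold change 2.27 ± 0.40, adjusted p = 0.00329). In EpCAM-low over Lgr5-negative cells Ptger3 no longer passed after scaling to the total (0.408). Ptger2 showed 0, 0 and 0 in EpCAM-high, 0, 0 and 15.6 in EpCAM-low and 58.1, 64.4 and 72.6 in Lgr5-negative cells. It was at least 18.9-fold lower in EpCAM-high than in Lgr5-negative cells (limma adjusted p = 0.00497) and fell in EpCAM-low cells, where 1 library held reads (log2 fold change -4.69 ± 1.08, adjusted p = 0.0106). In EpCAM-low cells Ptger2 no longer passed in edgeR (0.0686) or in edgeR with sort day as a block (0.0698). Both also fell in corpus Sox2-positive cells. Ptger2 had 4.61, 14.7 and 4.62 there, against 97.1, 248 and 136 in Sox2-negative cells (log2 fold change -4.24 ± 0.52, limma adjusted p = 0.00106), the largest fall of a receptor gene in this comparison. Ptger3 had 73.1, 226 and 72.4, against 315, 608 and 373 (log2 fold change -1.96 ± 0.44, adjusted p = 0.0225); neither gene's groups overlapped. Of these, Ptger3 no longer passed without Sox2-positive library 1 or 3 or Sox2-negative library 2 or 3 (adjusted p 0.0768 to 0.106), nor in edgeR (0.053). In the antrum Ptger4 had 1282, 2946 and 2609 normalized counts in Lgr5-positive cells, against 535, 1073 and 1398 in Lgr5-negative cells, which overlapped, and was called only with the block (log2 fold change 1.20 ± 0.47, limma adjusted p = 0.634 and 0.0208). In the corpus it had 60.1, 89.4 and 17 in EpCAM-high and 431, 275 and 297 in Lgr5-negative cells, without a call (limma adjusted p = 0.245). Ptger1 held at most 16.2 normalized counts in any library and did not pass the minimum in any of the 8 comparisons.

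Gpr4, a proton-sensing receptor known from endothelium, reached 28.7 normalized counts at most and entered no test, nor did Gpr37l1, because neither passed the minimum among the libraries of any one fit.

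Most of the receptor genes that rose in antral Sox2-high cells were orphans. Gpr85, an orphan receptor known from the brain that forms a small family with Gpr27 and Gpr173, had 445, 865 and 841 normalized counts in Sox2-high, 28, 46.5 and 55.4 in Sox2-low and 44.5, 41.8 and 118 in Sox2-negative cells. Every Sox2-high library lay above all 6 others, and Gpr85 rose over Sox2-low (log2 fold change 4.01 ± 0.51, limma adjusted p = 0.00326) and Sox2-negative cells (log2 fold change 3.49 ± 0.51, adjusted p = 0.00962). Over Sox2-negative cells Gpr85 no longer passed without Sox2-high library 2 or 3 (adjusted p 0.0512 to 0.0643). Gpr182, which is related to chemokine receptors, had 437, 285 and 228 in Sox2-high, 23.1, 28.3 and 14.9 in Sox2-low and 128, 44.8 and 60.3 in Sox2-negative cells, also without overlap. It rose over Sox2-low cells (log2 fold change 3.77 ± 0.50, limma adjusted p = 0.00376); over Sox2-negative cells it passed only with the block (adjusted p = 0.071 and 0.0164). Gpr6, which raises cyclic AMP without an added ligand, had 406, 449 and 457, 48.2, 74.9 and 69.8 and 352, 71.7 and 216 in the same groups, the Sox2-high libraries being the most even of the 3 groups. Gpr6 rose over Sox2-low cells (log2 fold change 2.77 ± 0.53, limma adjusted p = 0.0169) and gave 1.31 ± 0.53 over Sox2-negative cells (adjusted p = 0.348). Gpr6 no longer passed without Sox2-high library 2 or 3 or Sox2-low library 1, 2 or 3 (adjusted p 0.0564 to 0.0741). In the 15 corpus libraries Gpr6 reached at most 6.11.

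Gpr62 had 86.5, 42.3 and 48.1 normalized counts in Sox2-high cells, against 10.6, 4.72 and 5.37 in Sox2-low cells (log2 fold change 2.93 ± 0.67, limma adjusted p = 0.0306), with 84, 17.3 and 38 in Sox2-negative cells. Gpr62 no longer passed without Sox2-high library 1, 2 or 3 or Sox2-low library 1, 2 or 3 (adjusted p 0.0569 to 0.115). Gpr19 had 361, 336 and 295 normalized counts in Sox2-high cells, against 122, 127 and 125 in Sox2-low cells, even within each group and without overlap (log2 fold change 1.39 ± 0.32, adjusted p = 0.0314). Gpr19 no longer passed without Sox2-high library 1, 2 or 3 or Sox2-low library 1, 2 or 3 (adjusted p 0.0504 to 0.119), nor with no filter on low values (0.0583). Gpr146, known in liver for a role in cholesterol metabolism, had 165, 239 and 248 normalized counts in Sox2-high cells, against 53.1, 76.9 and 85.9 in Sox2-low cells (log2 fold change 1.59 ± 0.39, adjusted p = 0.0396). Over Sox2-low cells Gpr146 no longer passed without Sox2-high library 2 or 3 or Sox2-low library 1, 2 or 3 (adjusted p 0.0915 to 0.146), nor with no filter on low values (0.0673), after TMM scaling (0.0537) or after scaling to the total (0.0959). With the block alone, Gpr135 (3.10 ± 1.01), Gpr155 (2.15 ± 0.39), Gpr27 (1.62 ± 0.52) and Gpr137 (0.64 ± 0.17) also rose and Gpr89 (-0.52 ± 0.15) fell in Sox2-high against Sox2-low cells. Their limma adjusted p values with the block were 0.0498, 0.00644, 0.0464, 0.0238 and 0.0365. Of these, Gpr135 met the minimum only through Sox2-high libraries, so only a rise could be called for it. Gpr137, a lysosomal protein, also passed with the block over Sox2-negative cells (adjusted p = 0.0495), where it had 815, 795 and 665 in Sox2-high and 625, 432 and 420.3 in Sox2-negative cells.

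**Figure D3:**
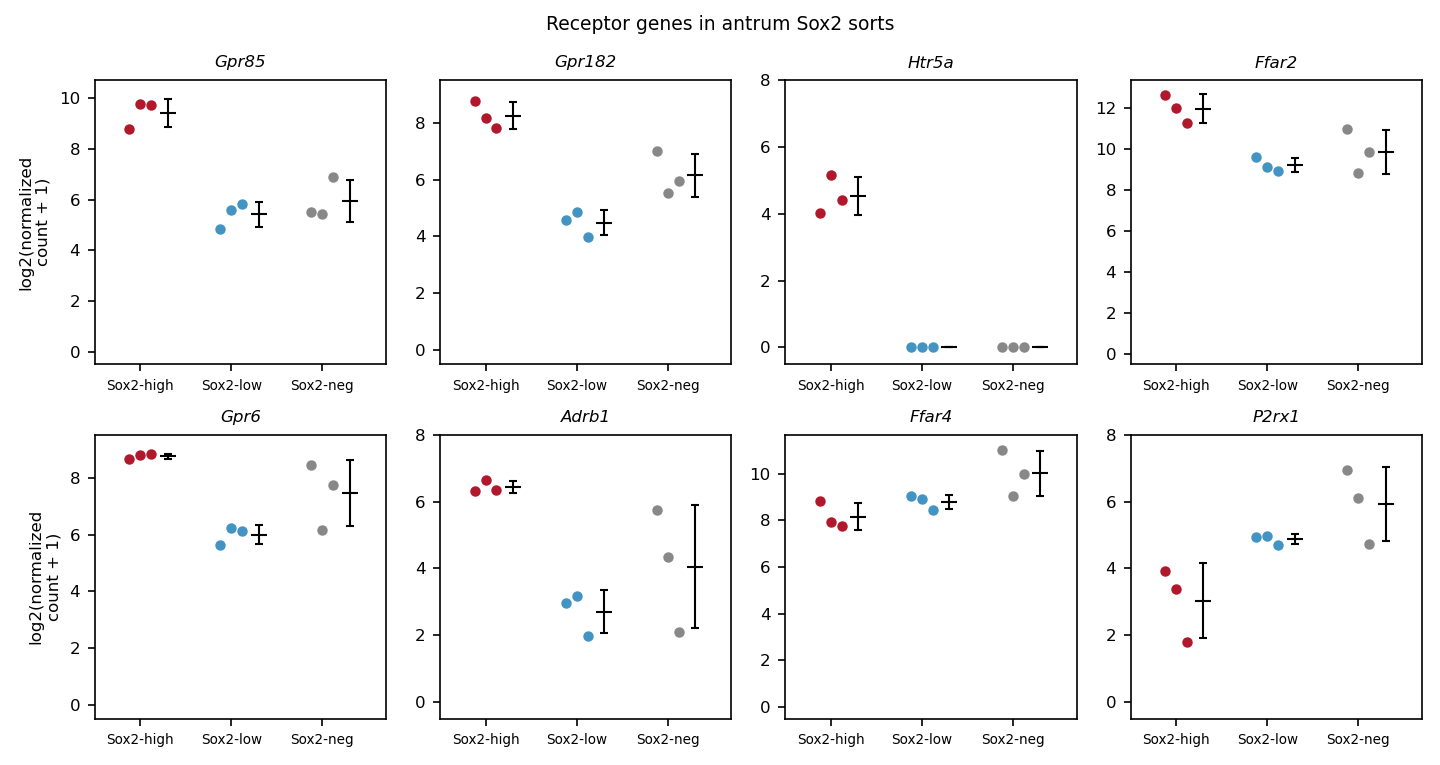
Panels show 8 receptor genes in the antral Sox2 sorts, with log2(normalized count + 1) on the vertical axis, 1 point per library and a bar for the mean ± SD of 3 libraries; from left to right stand the Sox2-high, the Sox2-low and the Sox2-negative sort. Sox2-high points lie above all others for Gpr85, Gpr182, Htr5a, Ffar2, Gpr6 and Adrb1, and for P2rx1 below all others, while Ffar4 is highest in Sox2-negative cells (2033, 528 and 1003 normalized counts).

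In the corpus Lgr5 sorts, Gpr137b, a lysosomal membrane protein, had 1418, 1287 and 1155 normalized counts in EpCAM-high, 54.5, 84.1 and 12.5 in EpCAM-low and 154, 106 and 102 in Lgr5-negative cells. It rose without overlap over EpCAM-low (log2 fold change 5.01 ± 0.59, limma adjusted p = 0.000307) and Lgr5-negative cells (log2 fold change 3.42 ± 0.59, adjusted p = 0.00427), and in EpCAM-low against Lgr5-negative cells it passed only with the block (log2 fold change -1.59 ± 0.59, adjusted p = 0.0677 and 0.0448). Its pseudogene Gpr137b.ps had 739, 913 and 618 in EpCAM-high and 0, 119 and 106 in EpCAM-low cells (log2 fold change 5.0 ± 1.51, adjusted p = 0.0314). The near-identical copies can share reads, so the split between them is uncertain. Gpr137b.ps no longer passed without EpCAM-high library 1, 2 or 3 (adjusted p 0.0639 to 0.092), nor with only the compared groups in the fit (0.0702). Gpr18, known from lymphoid cells, had 81.5, 160.4 and 32.8 in EpCAM-high, 0 in all 3 EpCAM-low and 4.59, 0 and 2.27 in Lgr5-negative cells. It was at least 10.7-fold higher than in EpCAM-low cells (limma adjusted p = 0.000816) and rose over Lgr5-negative cells (log2 fold change 4.86 ± 0.89, adjusted p = 0.00553). Without any 1 EpCAM-high library Gpr18 fell below the minimum and was not tested. It entered this fit only through EpCAM-high cells, so only a rise in them could be called. Of the immune markers, only 2 of 7 tested rose over EpCAM-low and 1 of 7 over Lgr5-negative cells. The list summed to 8332 to 14475 normalized counts in EpCAM-high, 5262 to 7055 in EpCAM-low and 5159 to 6064 in Lgr5-negative cells, with Cd3e at 0 in all 3 groups. The part of immune cells in the Gpr18 difference was not tested. The orphan Gpr135 had 92.2, 142 and 114 in EpCAM-high, 0 in all 3 EpCAM-low and 24.5, 8.19 and 2.27 in Lgr5-negative cells. It was at least 13.6-fold higher in EpCAM-high than in EpCAM-low cells (limma adjusted p = 0.00031), rose over Lgr5-negative cells (log2 fold change 3.66 ± 0.81, adjusted p = 0.0123) and was at least 1.36-fold lower in EpCAM-low than in Lgr5-negative cells (adjusted p = 0.0161). In EpCAM-high over Lgr5-negative cells Gpr135 no longer passed without EpCAM-high library 2 or Lgr5-negative library 2 or 3 (adjusted p 0.0525 to 0.0589), nor in edgeR with sort day as a block (0.0519). In EpCAM-low against Lgr5-negative cells Gpr135 no longer passed without Lgr5-negative library 1 or 2 (adjusted p 0.0609 to 0.0711), nor with a pseudocount of 10 (0.0928) or in edgeR with sort day as a block (0.0639).

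EpCAM-low cells had the highest levels of Gpr155, a lysosomal cholesterol sensor, with 523, 76.8 and 1172 normalized counts in EpCAM-high, 5181, 1885 and 3354 in EpCAM-low and 196, 179 and 96.4 in Lgr5-negative cells. It fell in EpCAM-high against EpCAM-low cells (log2 fold change -3.14 ± 0.84, limma adjusted p = 0.0193) and rose in EpCAM-low over Lgr5-negative cells (log2 fold change 4.40 ± 0.84, adjusted p = 0.00468). Between the EpCAM sorts Gpr155 no longer passed without EpCAM-low library 1 (adjusted p 0.0564), nor after scaling to the total (0.218). Genes with small differences were also called, and their direction depended on scaling. Gpr180 had 1450.2, 1584 and 1369 in EpCAM-high, 2645, 2725 and 2527 in EpCAM-low and 1753, 1741 and 1624 in Lgr5-negative cells. Gpr180 fell by 0.84 in EpCAM-high against EpCAM-low cells (limma adjusted p = 0.00136) and rose by 0.63 ± 0.13 in EpCAM-low over Lgr5-negative cells (adjusted p = 0.00733), but scaled to the read total the differences were 1.18 and -1.37. Gpr146 (1.48 ± 0.33, adjusted p = 0.00926), Gpr108 (0.59 ± 0.14, adjusted p = 0.0128) and the Golgi pH regulator Gpr89 (0.55 ± 0.16, adjusted p = 0.0275) rose in EpCAM-low over Lgr5-negative cells in limma, but scaled to the total they gave -0.51, -1.41 and -1.45. Of these, Gpr108 no longer passed without Lgr5-negative library 2 or 3 (adjusted p 0.0586 to 0.0635), nor after TMM scaling (0.0596). Gpr89 no longer passed without EpCAM-low library 3 or Lgr5-negative library 1, 2 or 3 (adjusted p 0.0567 to 0.104), nor with no filter on low values (0.0554), in edgeR with sort day as a block (0.0521) or after TMM scaling (0.078). In EpCAM-high over Lgr5-negative cells Gpr108 rose by 0.50 ± 0.14 (limma adjusted p = 0.0327). In EpCAM-high cells Gpr108 no longer passed without EpCAM-high library 1, 2 or 3 or Lgr5-negative library 1, 2 or 3 (adjusted p 0.0637 to 0.14), nor in edgeR with sort day as a block (0.0512), after TMM scaling (0.0691) or after scaling to the total (0.202). Gpr39, a zinc-sensing receptor, passed only with the block between the EpCAM sorts (-1.10 ± 0.38, adjusted p = 0.0519 and 0.0175), and its difference was 0.91 when scaled to the total. Gpr35, for which kynurenic acid is a proposed ligand, had 91.2, 253 and 1.21 in EpCAM-high and 0, 3.50 and 0 in EpCAM-low cells, which overlapped, and also passed only with the block (limma adjusted p = 0.0561 and 0.0327).

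Other orphans were lower in the Lgr5-positive corpus sorts than in Lgr5-negative cells. Gpr182 had 15, 60.7 and 48.6 normalized counts in EpCAM-high, 27.2, 31.5 and 9.37 in EpCAM-low and 326, 351 and 176 in Lgr5-negative cells, and fell in both (log2 fold change -2.90 ± 0.68, limma adjusted p = 0.0157, and -3.69 ± 0.68, adjusted p = 0.00411). In EpCAM-high cells Gpr182 no longer passed without Lgr5-negative library 1 or 2 (adjusted p 0.0674 to 0.0778). Gpr27 had 0, 10.5 and 12.5 in EpCAM-low, against 153, 169.7 and 99.8 in Lgr5-negative cells (log2 fold change -4.69 ± 1.02, adjusted p = 0.00819), and EpCAM-high cells lay between (12.9, 59.6 and 26.7). Gpr85 was at 0 in all 3 EpCAM-low libraries and at 50.4, 62 and 51 in Lgr5-negative cells, at least 6.36-fold lower (limma adjusted p = 0.0045). Gpr153 and Gpr37, a receptor known from myelinating glia, were at 0 in all 3 EpCAM-high libraries, against 35.2, 84.3 and 34 and 21.4, 19.9 and 14.7 in Lgr5-negative cells, at least 14.9-fold and 5.44-fold lower (limma adjusted p = 0.0154 and 0.0107). Gpr37 entered this fit only through Lgr5-negative cells, so only a fall could be called for it. In EpCAM-high cells Gpr153 no longer passed without EpCAM-high library 2 or Lgr5-negative library 1, 2 or 3 (adjusted p 0.0502 to 0.0781). In EpCAM-low cells Gpr153 had 0, 0 and 34.4 (log2 fold change -3.86 ± 1.31, adjusted p = 0.049). In EpCAM-low cells Gpr153 no longer passed without EpCAM-low library 1 or 2 or Lgr5-negative library 1, 2 or 3 (adjusted p 0.107 to 0.164), nor with no filter on low values (0.0521), with sort day as a block (0.051), in edgeR (0.291), in edgeR with sort day as a block (0.212), in DESeq2 (0.378) or with only the compared groups in the fit (0.0867). The glia and neuron markers summed to 8.50 to 73.3 normalized counts in EpCAM-high, 0 to 14.0 in EpCAM-low and 101 to 149.8 in Lgr5-negative cells, with 1 of 6 at 0 in all EpCAM-high libraries and 4 of 6 in all EpCAM-low libraries. The part of such cells in the fall of Gpr37 was not tested. The 9 enteroendocrine markers summed to 5881 to 19597 in EpCAM-high, 4991 to 10543 in EpCAM-low and 160208 to 264999 in Lgr5-negative cells. Pax6 was at 0 in all EpCAM-high libraries. In the same order the 2 ECL cell markers summed to 1566 to 2284, 593 to 2236 and 19890 to 35812. The part of these cells in the receptor differences was not tested.

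**Figure D4:**
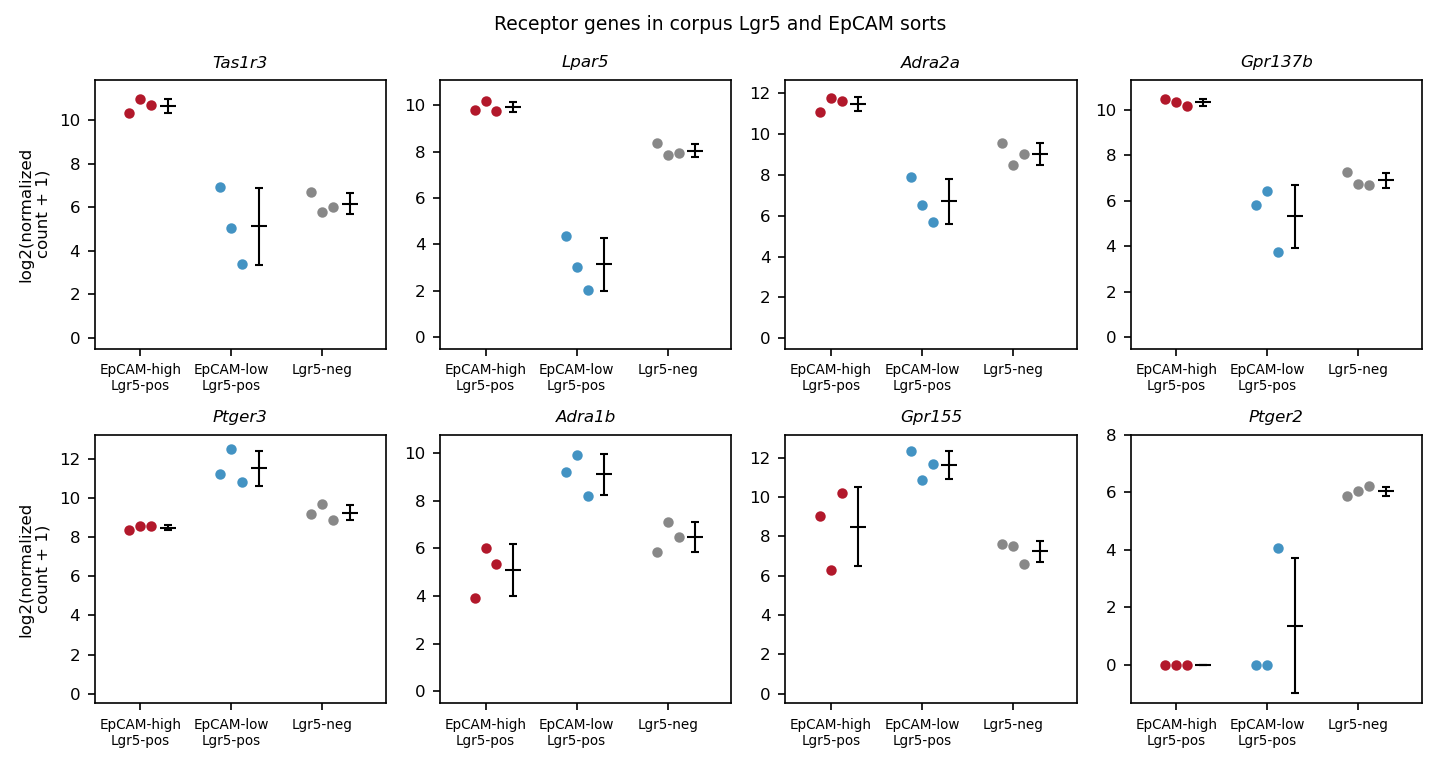
Panels show 8 receptor genes in the corpus Lgr5 sorts, with log2(normalized count + 1) on the vertical axis, 1 point per library and a bar for the mean ± SD of 3 libraries; EpCAM-high Lgr5-positive, EpCAM-low Lgr5-positive and Lgr5-negative cells run left to right. EpCAM-high points lie highest for Tas1r3, Lpar5, Adra2a and Gpr137b, EpCAM-low points for Ptger3, Adra1b and Gpr155, and Lgr5-negative points for Ptger2.

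In corpus Sox2-positive cells 7 orphans or related genes fell, each without overlap between the groups. Of these, Gpr153, Gpr162, Gpr173 and Gpr183 entered the fit only through Sox2-negative cells, so only a fall could be called for them. Gpr27 had 20.4, 24.8 and 30.1 normalized counts in Sox2-positive cells, against 281, 441 and 277 in Sox2-negative cells (log2 fold change -3.66 ± 0.29, limma adjusted p = 0.000154). Its relatives Gpr173 (0, 1.83 and 0, against 10.7, 17.4 and 16) and Gpr85 (15.8, 24.8 and 5.39, against 64.2, 143 and 74.2) fell with it (-3.44 ± 0.72, adjusted p = 0.0151, and -2.67 ± 0.55, adjusted p = 0.0149), so all 3 genes of this family were lower. Of the family, Gpr85 no longer passed without Sox2-negative library 2 or 3 (adjusted p 0.0555 to 0.0631). Gpr182 had 19.8, 83.5 and 35.4 normalized counts in Sox2-positive cells, against 370.1, 944 and 419 in Sox2-negative cells (log2 fold change -3.72 ± 0.52, limma adjusted p = 0.00204). The orphan pair Gpr153 and Gpr162 had 0, 8.25 and 6.16 and 0, 2.75 and 0.771 in Sox2-positive cells, against 42.1, 82.8 and 69.5 and 11.5, 13.1 and 16.9 in Sox2-negative cells (-3.97 ± 0.81, adjusted p = 0.0134, and -2.96 ± 0.71, adjusted p = 0.0291). Of the pair, Gpr162 no longer passed without Sox2-positive library 1 or 3 (adjusted p 0.0687 to 0.0736). Gpr183, an oxysterol receptor of lymphocytes, had 5.27, 3.67 and 6.93 normalized counts in Sox2-positive cells, against 55.8, 45 and 23.5 in Sox2-negative cells (log2 fold change -2.70 ± 0.50, adjusted p = 0.00848). The summed immune markers were 7175 to 7756 in Sox2-positive and 6136 to 17942 in Sox2-negative cells, and their part was not tested.

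**Figure D5:**
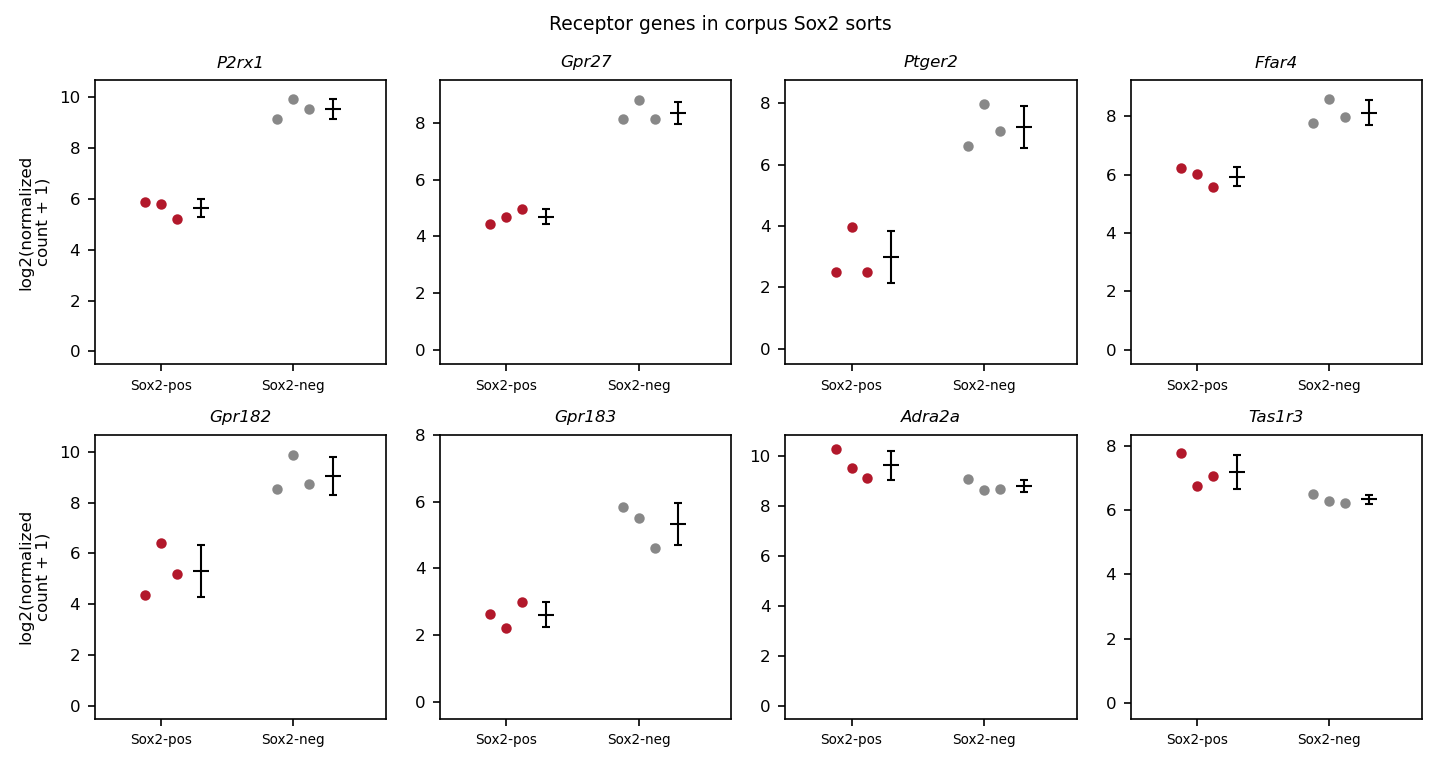
Panels show 8 receptor genes in the corpus Sox2 sorts, with log2(normalized count + 1) on the vertical axis, 1 point per library and a bar for the mean ± SD of 3 libraries; Sox2-positive cells stand left of Sox2-negative cells. P2rx1, Gpr27, Ptger2, Ffar4, Gpr182 and Gpr183 are lower in Sox2-positive cells without overlap (-3.89, -3.66, -4.24, -2.18, -3.72 and -2.70 on the log2 scale), while Adra2a and Tas1r3 lie higher.

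Over the 8 comparisons, 39 of the 71 receptor genes were called at least once, 7 only with sort day as a block and 25 in none. Of these 25, 5 (Gpr4, Gpr37l1, Gpr165, Gpr171 and Ptger1) passed the minimum in none of the 8. Not all genes without a call were near the minimum. Gpr107, a Golgi protein, ranged from 779 to 2642 normalized counts over the 30 libraries, and Gpr160 from 206 to 991. Gpr160 peaked in EpCAM-high cells, at 991, 818 and 847 against 616, 603 and 619 in Lgr5-negative cells, but its tests did not pass (limma adjusted p = 0.183, and 0.0718 over EpCAM-low cells). Gpr161, a receptor of the primary cilium that restrains Hedgehog signalling, had 1.32, 26.6 and 29.3 in corpus Sox2-positive and 54.3, 77.7 and 65.7 in Sox2-negative cells, without overlap (log2 fold change -2.41 ± 0.88, limma adjusted p = 0.15). Gpr55, a receptor for lysophosphatidylinositol, Gpr75, Gpr157, Gpr165, Gpr171 and Gpr21 stayed at or below 79.5 normalized counts in every library, and Gpr137c at or below 85.0. Of the low LPA receptor genes, Lpar3 and Lpar4 reached 33.9 and 30.4.

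The genes through which such receptors act were described with 2 lists, chosen with earlier results of these data known: G proteins, effectors and regulators (40 genes, 38 of them in the tables) and makers or removers of ligands (28 genes). In EpCAM-high over EpCAM-low cells 12 of 32 transduction genes tested rose and 7 fell, with a median of 0.61, against 0.07 over all genes. Those that rose include the taste cascade: limma gave Plcb2 (6.36, adjusted p = 0.000292), Trpm5 (5.99, adjusted p = 0.000174), Gng13 (5.39, adjusted p = 4.07e-05) and Gnat3 (3.98, adjusted p = 0.0123), all known tuft cell genes, and the inhibitory G protein gene Gnai2 (2.85, adjusted p = 5.49e-05). Another phospholipase C gene, Plcb1 (-2.27, adjusted p = 0.0168), fell. Over Lgr5-negative cells 9 of 32 rose and 8 fell in EpCAM-high cells, and 0 rose and 9 fell in EpCAM-low cells. Among 22 ligand genes 7 rose and 6 fell between the EpCAM sorts, with the prostaglandin synthases Ptgs2 (8.33, adjusted p = 0.00115) and Ptgs1 (5.61, adjusted p = 0.000666) and the S1P exporter Spns2 (6.25, adjusted p = 0.000917) higher in EpCAM-high cells, and the prostaglandin E synthase Ptges (-6.43, adjusted p = 0.000574) and the amine oxidase Maoa (-3.79, adjusted p = 0.00361) lower. In EpCAM-high over Lgr5-negative cells 6 of 22 rose and 2 fell, and in EpCAM-low over Lgr5-negative cells 5 rose and 3 fell.

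In antral Sox2-high over Sox2-low cells 5 of 33 transduction genes rose and 2 fell: limma gave Gnaz (2.51, adjusted p = 0.00312) and Gnao1 (1.76, adjusted p = 0.0316), both inhibitory G protein genes, as higher, and Plcb2 (-4.40, adjusted p = 0.00498) as lower. Of 24 ligand genes 3 rose and 2 fell, with Tph1 (9.06, adjusted p = 0.00219), which starts serotonin synthesis, Enpp2 (4.67, adjusted p = 0.00498), which makes lysophosphatidic acid, and the ATP-cleaving Entpd3 (4.16, adjusted p = 0.00362) higher, and Ptgs1 (-3.23, adjusted p = 0.0231) and Th (-2.04, adjusted p = 0.0187), which starts catecholamine synthesis, lower. Over Sox2-negative cells 1 of 33 transduction genes rose and 1 fell, and 1 of 24 ligand genes rose and 2 fell. In corpus Sox2-positive over Sox2-negative cells 2 of 33 transduction genes rose, Trpm5 (1.44, adjusted p = 0.00311) and Plcb2 (1.34, adjusted p = 0.0236), and 7 fell, with Adcy1 (-4.94, adjusted p = 0.00373) and Gnao1 (-3.15, adjusted p = 0.000683) among them. Of 23 ligand genes 0 rose and 5 fell there: Entpd1 (-5.04, adjusted p = 0.00224), Th (-5.0, adjusted p = 0.00174), Enpp2 (-4.07, adjusted p = 0.00385), the serotonin transporter gene Slc6a4 (-2.78, adjusted p = 0.0175) and Maob (-2.58, adjusted p = 0.00129) in limma.

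Whether the Lgr5 and Sox2 differences of receptor genes differ between antrum and corpus was tested as a difference of differences over the 15 libraries of each line, after joint TMM scaling. For Lgr5 the antral difference was set against the corpus difference averaged over the EpCAM-high and EpCAM-low sorts. There limma called 0 of 57 receptor genes and edgeR 0, with 6 at an unadjusted p under 0.05 in limma and 1.12% of all genes called. Lpar2 came closest, at 2.39 ± 0.62 (limma adjusted p = 0.0846), and passed with the block (0.042). Ptger2 (4.23 ± 1.18, adjusted p = 0.112) and Ffar2 (4.69 ± 1.40, adjusted p = 0.145) followed. With a pseudocount of 10 all 3 were called. Without EpCAM-low library 1, 2 or 3 the count was 1, namely Ffar2 without library 1 or 2 and Ptger2 without library 3. For Sox2 the antral Sox2-low against Sox2-negative difference was set against that of corpus Sox2-positive against Sox2-negative cells. There limma, with or without the block, and edgeR called 0 of 66 receptor genes, 8 had an unadjusted p under 0.05 in limma, and 0.0362% of all genes were called. The smallest p-values were those of Gpr27 (2.56 ± 0.71, limma adjusted p = 0.342) and P2rx1 (2.88 ± 0.81, adjusted p = 0.342). Their fall in corpus Sox2-positive cells was thus not shown to differ from the antral values.

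Counting limits some of these genes. Of the 70 receptor genes found in the RefSeq gene table, 23 overlap a protein-coding gene, among them Tas1r3 with Dvl1, Lpar6 with Rb1, P2rx4 with Camkk2, Gpr18 and Gpr183 with Ubac2, Gpr135 with L3hypdh, Gpr27 with Eif4e3, Gpr153 with Hes3, Gpr146 with 3110082I17Rik and Gpr108 with Trip10. The sources used here do not say whether strand was used in counting, so reads of overlapping neighbours may have been lost or shared.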

How the data were processed

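The 30 libraries were made from sorted cells with a low-input SMARTer kit, per the labels' protocols. The submitters' processing notes list STAR, HTSeq, DESeq2, edgeR and the mouse build mm9, with roles, versions and use of strand not given in the sources used here. The authors deposited expression as a signal, gene counts over a factor per library, in antrum and corpus tables scaled separately. At a tolerance of 0.01, at least 99.9949% of the values of each library came out as whole reads, which edgeR and DESeq2 used. The authors deposited tables of 3 comparisons with log2 fold changes and adjusted p-values, per the file headers, and a sheet of sort days and cell numbers. Of 26400 features, 433 without a name (0.029 to 0.482% of reads) and 25 with date-like names (0.0132 to 0.106%) were left out.

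Receptor genes, gene lists and comparisons were chosen with earlier results of these data known. Limma 3.58.1 (R 4.3.3, empirical Bayes with trend and robust options) was fitted to log2(normalized count + 1), with all groups of a line and tissue together, for genes with 10 or more normalized counts in 3 libraries of the fit. P-values were adjusted over all genes by Benjamini-Hochberg, with a threshold of 0.05. Differences between tissues used recovered reads scaled jointly by TMM. Groups at 0 in all 3 libraries are given as bounds against 3 reads per library, which cover counting error only. The alternatives were a pseudocount of 10, other filters, TMM and total scaling, only 2 groups, sort day as a block, edgeR 4.0.16 (quasi-likelihood), DESeq2 1.42.0 and leaving out each library. Numbers pair the libraries because the sort sheet gives 1 day per number in 12 of 12 combinations. Deviations of same-numbered libraries correlated at -0.0563 to 0.673, over 0.1 in 17 of 24 pairs. An exact permutation test of 3 against 3 libraries cannot go below 0.1 and was not used. Named are receptor genes called with or without the block, the nutrient and taste receptors, the 3 with the most counts per role, and those at 0 on 1 side of a comparison. The fitting scripts were tested on simulated data. The results of 2 of the receptor genes are not reported here, though they are part of the counts.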

Additional observations from a re-analysis of the deposited data

How the results depend on the processing

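Of the values of single receptor genes under the alternatives, 1450 kept their direction and side of the threshold, 152 lost the call, 99 gained it and 6 changed sign, the last all after scaling to the read total, which by construction moves every gene of the EpCAM-low comparisons. These were Gpr180 (1.18) and Gpr39 (0.91) in EpCAM-high over EpCAM-low cells, and Gpr146 (-0.51), Gpr180 (-1.37), Gpr108 (-1.41) and Gpr89 (-1.45) in EpCAM-low over Lgr5-negative cells, as log2 fold changes. Counts of called receptor genes came to 35 and 37 in the same comparisons under that scaling.

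With the replicate block of sort day the counts were 4 in antral Lgr5-positive over Lgr5-negative cells (0 without it), 19 in Sox2-high over Sox2-low cells (10), 11 in Sox2-high over Sox2-negative cells (2) and 1 in the Lgr5 difference between tissues (0). With the block in edgeR the first 3 were 4, 18 and 7. The block changed the calls of single genes named with it in the results, and moved no other count by over 1.5 times. In DESeq2 the counts were 2 for antral Lgr5, 10 for Sox2-high and 3 for Sox2-low over Sox2-negative cells. For Sox2-high over Sox2-negative cells the count was 1 in edgeR without the block, with a filter of 50 normalized counts and with only the 2 groups fitted. With only the 2 groups fitted, EpCAM-high over Lgr5-negative cells gave 26, and a filter of 50 gave 7 in corpus Sox2-positive over Sox2-negative cells. A pseudocount of 10 gave 3 in the Lgr5 difference between tissues. The causes were not tested, except that the stricter filter tests fewer genes.

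Without 1 library each, the counts ranged from 2 to 9 in Sox2-high over Sox2-low cells, from 0 to 4 in Sox2-high over Sox2-negative cells, from 8 to 15 in EpCAM-high over Lgr5-negative cells, from 17 to 22 in EpCAM-high over EpCAM-low cells, from 13 to 22 in EpCAM-low over Lgr5-negative cells, from 6 to 12 in corpus Sox2-positive cells and from 0 to 1 in the Lgr5 difference between tissues. They were 0 in antral Lgr5, in Sox2-low over Sox2-negative cells and in the Sox2 difference. Calls that were tested and kept under every alternative run were 14 of 19 in EpCAM-high over EpCAM-low cells, 7 of 17 in EpCAM-high and 8 of 20 in EpCAM-low over Lgr5-negative cells, 6 of 12 in corpus Sox2-positive cells, 2 of 10 in Sox2-high over Sox2-low cells and 0 of 2 over Sox2-negative cells. Htr5a, Gpr18, Gpr37, P2ry1, Gpr153, Gpr162, Gpr173 and Gpr183 fell below the minimum without some single libraries of the group holding their reads and were not tested there. A minimum of 5 normalized counts would give 81 receptor genes and one of 20 would give 55. Genes near the minimum rest on few reads, and a fold against a group at 0 is a bound.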

Other observations

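In the authors' deposited tables, 5 receptor genes were higher and 1 lower in antral Sox2-high over Sox2-low cells at an adjusted p under 0.05, with 4.74% of all genes called, and 0 of 56 receptor genes with an adjusted p were called in the antral Lgr5 table. In that table the authors' deposited signs are also opposite to those of Lgr5-positive over Lgr5-negative cells in the deposited counts: Ffar2 stands at -1.54, Adra2a at -1.28, Ptger4 at -1.18 and Ffar4 at 1.65, against 1.46, 1.37, 1.20 and -1.55. The authors' deposited table gave Ffar2 a log2 fold change of 2.82 (adjusted p = 3.11e-05) and Gpr85 one of 4.03 (adjusted p = 0.00683) in Sox2-high cells. The authors' deposited table of the corpus EpCAM sorts does not state its direction beyond its title. It lists Lpar5 at -5.07 (adjusted p = 5.98e-10), Adra1b at 3.04 (adjusted p = 0.446) and Ptger3 at 2.95 (adjusted p = 0.126), signs opposite to those of EpCAM-high over EpCAM-low cells in the deposited counts. Tas1r3 stands at 0.16 in the authors' deposited table (adjusted p = 0.942), whereas the deposited counts place all 3 EpCAM-high libraries above all 3 EpCAM-low libraries. The authors' deposited table also lists small, uncalled values for other genes whose EpCAM-high libraries all lay above the EpCAM-low ones: Gpr137b at -0.77 (adjusted p = 0.585), S1pr2 at -0.65 (adjusted p = 0.534), Ffar3 at -0.55 (adjusted p = 0.786), Gpr18 at -0.51 (adjusted p = 0.911) and P2rx4 at -0.34 (adjusted p = 0.757). A turned sign alone therefore does not make this table match the counts, and the cause was not tested.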
